A study of Mus musculus with 88 samples.

Results

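Satellite cells are the resident stem cells of skeletal muscle, and 6 transcription factors mark their states and their path to fibres: Pax7, Pax3, Myf5, Myod1, Myog and Myf6. These 6 genes were taken by their symbol from the annotation of the deposited count table, which lists 24453 genes, and all 6 were found. They are described here in 40 libraries of 4 hindlimb muscles, with 48 libraries of 5 other tissues as background. The animals were 10 male mice of the strain 100% C57BL/6NTac, aged 65 to 85 days and fasted for 18 h before collection. Of these, 5 carried a knockout of Cdh15 (Cdh15 KO) and 5 were wild type (WT). The series title places M-cadherin, the protein product of Cdh15, in adherens junctions and in the making of secondary fibres in the fetus, and ties it to fibre number and mass in the adult. Each mouse gave 1 library of each of 4 muscles, the soleus, the tibialis, the gastrocnemius and the extensor digitorum longus (EDL), so each group of muscle and genotype held 5 mice. The other tissues were heart, kidney, liver, lung and spleen, with 4 WT libraries in kidney and in spleen and 5 libraries in each other group. The labels do not say which part of Cdh15 was deleted, nor whether the WT mice were littermates. Whole muscles were sequenced, so fibre nuclei, satellite cells, vessels, nerve and connective tissue all contributed RNA, and fewer cells of a type cannot be told apart from less RNA per cell.

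Pax7 is the defining factor of quiescent and activated satellite cells, and Pax3 is its relative, which acts in the embryonic muscle precursors and persists in satellite cells of some adult muscles. Myf5 and Myod1 are basic helix-loop-helix factors that commit cells to the muscle lineage, Myog (myogenin) drives their terminal differentiation, and Myf6 (MRF4) is the member of that family that stays on in the nuclei of mature fibres. M-cadherin sits where satellite cells meet their fibre and is itself a marker of these cells. In adult muscle Myog is also known to rise in fibres that lose their nerve, and Myod1 and Myog have been linked to fast and slow fibres respectively.

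On mm10 the members lay on 4 chromosomes. Pax7 (Entrez 18509) spans chr4:139738081-139832968 on the minus strand with 9 exons, and Pax3 (18505) spans chr1:78101267-78197136 on the minus strand, also with 9 exons. Myod1 (17927) spans chr7:46376474-46379092 and Myog (17928) chr1:134290004-134292548, both on the plus strand with 3 exons. Myf5 (17877; chr10:107482908-107486134) and Myf6 (17878; chr10:107492860-107494729) are neighbours on the minus strand, 6725 bases apart, with 3 exons each. No other annotated gene overlapped a member. The RefSeq promoter table (GRCm38.p6, the assembly that mm10 denotes) held 3 of the 6, namely Pax7, Myf5 and Myog. The 250 bases before the start of Myog and of Pax7 are shown because these genes stand at the ends of the path, the differentiation factor and the stem cell factor. Capitals mark matches to the E-box (CANNTG), the motif bound by the Myod1 family, searched on both strands.
Myog, chr1:134289754-134290003, plus strand: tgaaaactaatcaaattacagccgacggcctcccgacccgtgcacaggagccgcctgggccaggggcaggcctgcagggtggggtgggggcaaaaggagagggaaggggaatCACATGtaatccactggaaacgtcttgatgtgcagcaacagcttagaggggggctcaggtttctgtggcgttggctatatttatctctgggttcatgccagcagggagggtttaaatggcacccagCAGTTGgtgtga
Pax7, chr4:139832969-139833218, minus strand: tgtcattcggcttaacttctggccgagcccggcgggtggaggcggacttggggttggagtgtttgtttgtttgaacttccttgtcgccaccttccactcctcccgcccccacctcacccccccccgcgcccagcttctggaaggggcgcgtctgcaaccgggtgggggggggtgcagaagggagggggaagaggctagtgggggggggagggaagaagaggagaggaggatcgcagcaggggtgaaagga
The Myog window held 2 E-boxes, CACATG at 138 to 133 bases and CAGTTG at 12 to 7 bases before the start. No E-box was found in the windows of Pax7 and Myf5. An E-box was common, present in 66.22% of the 32851 promoter windows of this length. A match describes letters only and was not set against binding data.

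Depth in muscle ran from 8.99 M to 25.1 M reads per library (M, mega), with a median of 19.9 M, and every member but Myf6 rested on few reads: the median over the 40 libraries was 31 reads for Pax7, 6 for Pax3, 22 for Myf5, 81 for Myod1, 44.5 for Myog and 1971 for Myf6. Levels within 1 gene are given as CPM, the reads of a gene per M reads of its library, scaled by TMM factors over the 40 muscle libraries. Cdh15 itself followed the labels: in EDL it averaged 18.9 ± 2.99 CPM (SD, n = 5) in WT and 2.87 ± 0.354 in KO, and over the muscles it fell by 2.71 to 3.41 on the log2 scale (edgeR adjusted p from 5.18e-09 in gastrocnemius to 0.000161 in soleus). All 40 muscle libraries were closest to the other libraries of their own muscle over 6251 genes, and all 88 libraries were highest in the markers of their own tissue. The soleus of KO mouse 3805666 stood apart in fibre genes, with 79.5 CPM of Myh4, the myosin of the fastest fibres, where the other 9 soleus libraries held 25260 to 64510 CPM. Fold changes that rest on KO soleus are therefore given with this mouse and without it.

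Myf6 was by far the most abundant member per unit of transcript length. Over the 40 muscle libraries its mean was 90.9 reads per kilobase of exon and M reads (RPKM, from the deposited table; range 58.6 to 142.1). Myod1 followed at 2.77 RPKM (0.655 to 7.19), Myog at 1.78 (0.878 to 4.58), Myf5 at 0.681 (0.329 to 1.43), Pax7 at 0.434 (0.231 to 0.768) and Pax3 at 0.135 (0 to 0.414). Of the summed RPKM of the 4 helix-loop-helix factors, Myf6 made up between 92.5% ± 0.964 (SD, n = 5) in WT tibialis and 95.7% ± 1.13 in WT gastrocnemius. The order of group means was Myf6, Myod1, Myog, Myf5, Pax7, Pax3 in 5 of the 8 groups. Neighbours in this order changed places in the other 3: Myog stood above Myod1 in KO gastrocnemius and KO soleus, and Pax7 above Myf5 in WT gastrocnemius. In KO soleus Myog made up 2.97% ± 0.589 and Myod1 2.13% ± 1.15 of the summed RPKM of the 4 factors, with overlapping ranges. The pair was closest in KO gastrocnemius, with Myog at 2.12% ± 1.18 and Myod1 at 2.09% ± 0.672 on the same measure.

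Outside skeletal muscle the members were close to silent. Over all 48 libraries of heart, kidney, liver, lung and spleen, Myf6 had 1 read, Myog 2 and Myod1 3, against a lowest count of 757 reads for Myf6 in a single muscle library. Myf6 had no read in any of the 10 heart libraries, and with the limit of 3 reads per library that a count of 0 allows, its mean of 107.8 CPM over the muscles was at least 697-fold higher. Myf5 had 28 reads and never more than 2 in a library. Pax7 with 35 reads and Pax3 with 48 reads exceeded 3 reads in 4 libraries in all, each of a WT mouse. Pax7 reached 4 reads in a lung (mouse 3793543), 6 in a spleen of the same mouse and 4 in a spleen of mouse 3793553, and Pax3 reached 6 reads in the heart of mouse 3793553. No tissue held either gene above this limit in more than 2 libraries.

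Comparing the genotypes asked whether adult muscles without M-cadherin held another level of these factors. With edgeR's quasi-likelihood test, adjusted over all genes, none of the 6 members changed in any of the 4 muscles. The background in edgeR was equally low, with Cdh15 the single gene that passed. This was 0.00771% of 12965 genes in soleus, 0.00777% of 12875 in EDL, 0.00792% of 12624 in gastrocnemius and 0.00810% of 12348 in tibialis. No member reached an unadjusted edgeR p under 0.05 in any muscle, where 17.2% of the tested genes in soleus, 4.58% in EDL, 1.95% in gastrocnemius and 1.77% in tibialis did. DESeq2 also called 0 members, but it called more genes than edgeR in soleus, EDL and gastrocnemius, with totals given further below. Pax3 was under the filter on low counts in gastrocnemius and soleus, which left 5 members tested there and 6 in EDL and tibialis. KO and WT libraries overlapped for each member in each muscle. The share of all genes that overlap was not counted, so this is not a trait of the members.

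**Figure D1:**
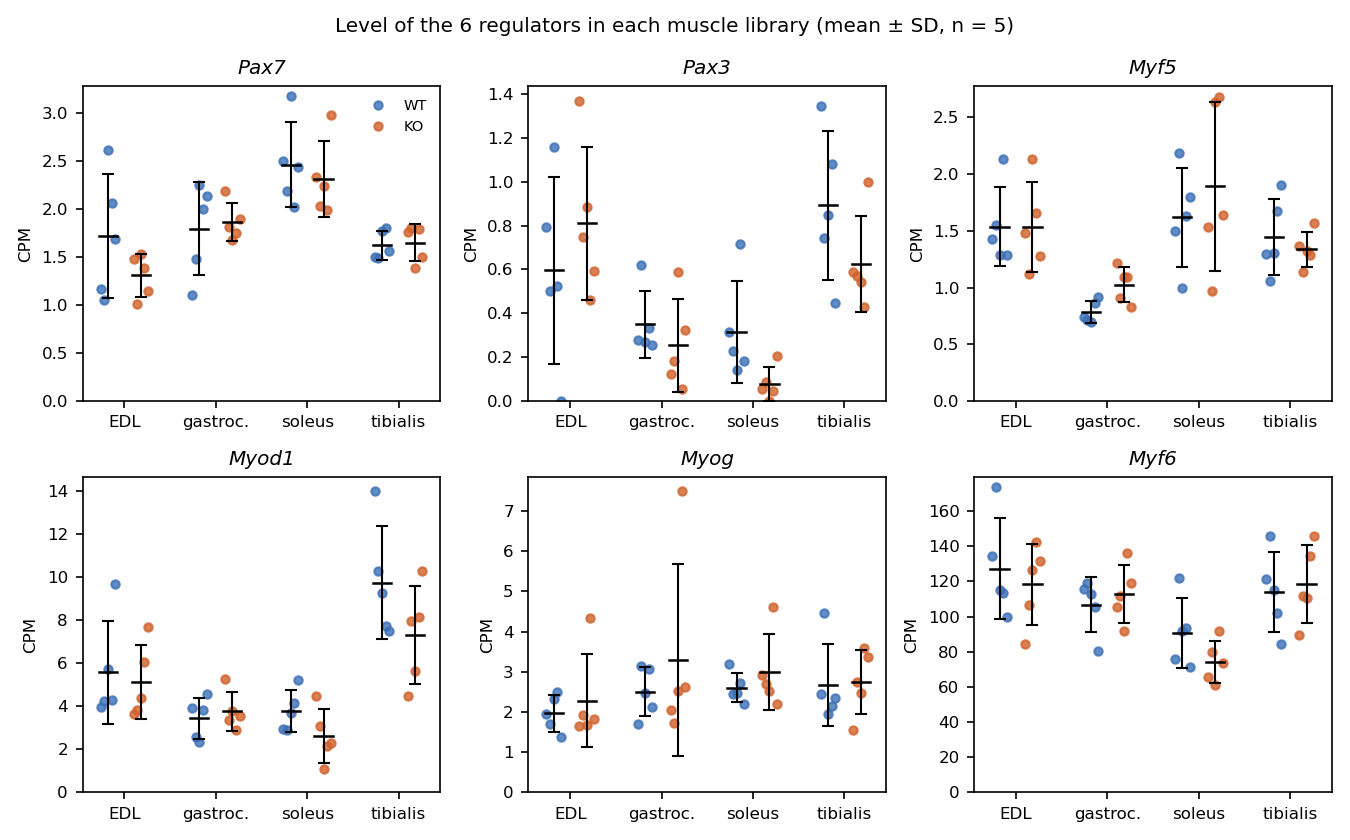
Level of each of the 6 genes in CPM (vertical axis, from 0, a scale of its own in each panel) in the 4 muscles, with 1 point per library, WT in blue and KO in orange, and black bars for mean and SD of 5 mice. WT and KO points overlap in every panel and muscle, and 1 KO gastrocnemius library stands alone for Myog at 7.501 CPM.

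Pax7, the satellite cell marker, passed the test in no muscle. Values are given in ascending order of the animals' numbers. In soleus its level was 2.50, 2.19, 3.17, 2.02 and 2.43 CPM in the WT mice and 2.33, 2.03, 2.23, 1.99 and 2.97 CPM in the KO mice. In EDL it was 1.16, 1.05, 2.61, 2.06 and 1.68 CPM in WT against 1.48, 1.01, 1.53, 1.38 and 1.14 CPM in KO. All 5 KO EDL libraries lay below the WT median there, but 4 of them lay inside the WT range. The log2 fold change of KO over WT was −0.40 in EDL (SE 0.25, 95% interval −0.93 to 0.14, edgeR adjusted p = 0.986), −0.11 in soleus (−0.47 to 0.25, and −0.10 without mouse 3805666), 0.07 in gastrocnemius (−0.34 to 0.48) and 0.0071 in tibialis (−0.40 to 0.42). When the 4 muscles of a mouse were thinned to equal depth and summed, the fold was 0.978 with an interval of 0.803 to 1.19.

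Pax3 was the least abundant member and its values rest on single reads. In tibialis it had 27, 14, 13, 18 and 4 reads in WT and 6, 6, 9, 6 and 14 in KO, a log2 fold change of −0.57 (SE 0.32, edgeR adjusted p = 0.9999). In EDL the WT mice had 15, 11, 27, 14 and 0 reads and the KO mice 25, 14, 19, 10 and 13. The EDL of WT mouse 3817948 was thus the single WT muscle library without a Pax3 read, while its Myod1 level of 9.70 CPM was the highest of the 10 EDL libraries. In soleus, where Pax3 was too low to be tested, there were 5, 5, 3, 11 and 4 reads in WT and 1, 2, 0, 1 and 4 in KO, and 4 of the 5 KO libraries lay below every WT library. KO soleus was thus at or under the limit of 3 reads in 4 of 5 libraries, and no fold is given for it.

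Neither of the lineage factors Myf5 and Myod1 passed the test, and the widest differences were those of Myod1 in soleus and tibialis. Myf5 differed by −0.0059 on the log2 scale in EDL, 0.36 in gastrocnemius (SE 0.22), 0.22 in soleus (0.06 without mouse 3805666) and −0.08 in tibialis, each with an interval that spans 0. Myod1 in soleus was 2.93, 2.91, 3.69, 4.17 and 5.23 CPM in WT and 4.50, 3.09, 1.08, 2.16 and 2.31 CPM in KO. The lowest value, 1.08 CPM from 27 reads, was that of KO mouse 3805666, the library low in Myh4. Its log2 fold change in soleus was −0.56 (SE 0.31, edgeR adjusted p = 0.364), or −0.36 without that library. In tibialis Myod1 was 14, 10.3, 9.28, 7.73 and 7.49 CPM in WT against 4.50, 7.98, 5.65, 8.17 and 10.3 CPM in KO, a log2 fold change of −0.43 (SE 0.23, interval −0.93 to 0.07). EDL and gastrocnemius gave −0.11 and 0.11.

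Myog showed no common shift, but a single KO mouse was high in it. In gastrocnemius its level was 1.71, 3.14, 2.46, 3.06 and 2.13 CPM in WT and 2.06, 1.72, 2.51, 7.501 and 2.63 CPM in KO. The value of 7.501 CPM came from 137 reads in mouse 3805676, which was also highest of the 10 mice in EDL (4.34 CPM) and soleus (4.62 CPM) and the next to highest in tibialis (3.58 CPM). With that mouse the log2 fold changes were 0.40 in gastrocnemius, 0.21 in EDL, 0.20 in soleus (0.25 without mouse 3805666) and 0.03 in tibialis, and without it they were −0.17, −0.16, −0.03 and −0.08. In EDL, gastrocnemius and soleus the sign turned without that mouse and not without any other mouse left out in turn. In tibialis, where the value was near 0, it also turned without WT mouse 3793543, 3805657, 3805673 or 3817948 or KO mouse 3817943. Myf6, the fibre factor, was measured most precisely. In soleus it was 75.7, 121.9, 91.7, 93.3 and 71.1 CPM in WT and 65.8, 80.0, 61.3, 91.5 and 73.6 CPM in KO, a log2 fold change of −0.30 (SE 0.15, edgeR adjusted p = 0.317), or −0.24 without mouse 3805666. In the other muscles it differed by −0.10 in EDL, 0.07 in gastrocnemius and 0.05 in tibialis, with intervals from −0.47 at the lowest to 0.39 at the highest.

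**Figure D2:**
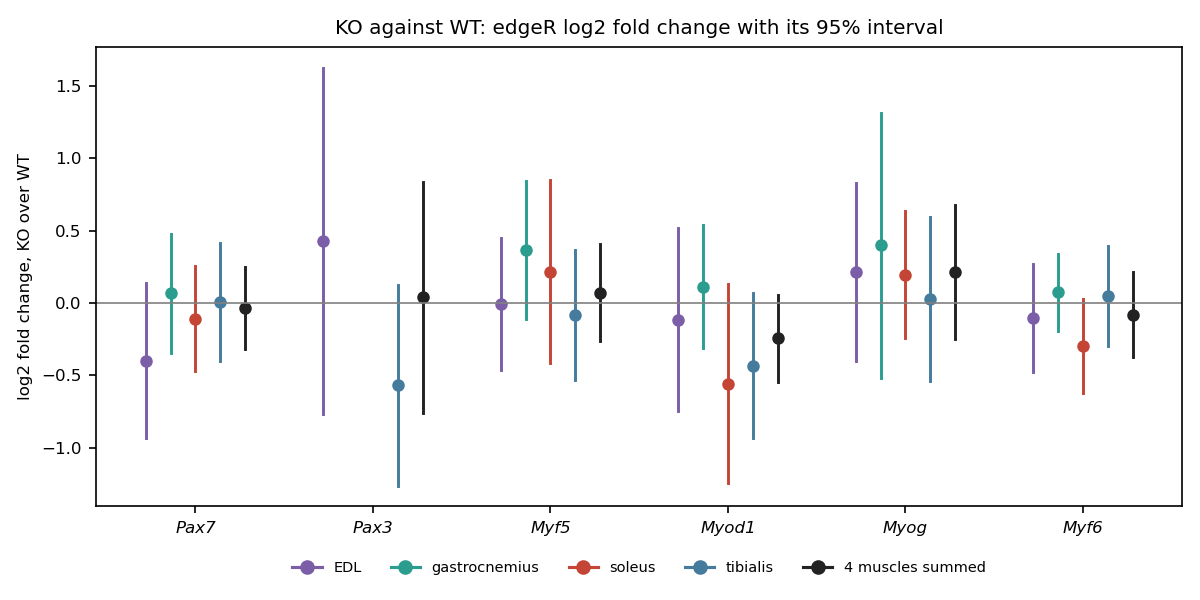
Log2 fold change of KO over WT (vertical axis) for each gene, with 95% intervals from edgeR, in the 4 muscles and in counts summed over the 4 muscles of a mouse. Pax3 has no value in gastrocnemius and soleus, where it was under the filter. Each interval crosses 0, and the widest is that of Pax3 in EDL.

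In counts summed over the muscles of a mouse 0 of 6 members passed, beside 0.00735% of 13598 genes, which is Cdh15 alone. No member and 5.66% of the genes reached an unadjusted p under 0.05. DESeq2 called 31 genes and 0 members. The summed folds of KO over WT were 1.05 for Myf5 (interval 0.833 to 1.33), 0.845 for Myod1 (0.687 to 1.04), 1.16 for Myog (0.840 to 1.60), 0.946 for Myf6 (0.772 to 1.16) and 1.03 for Pax3 (0.590 to 1.79). An exact two-sided permutation test of the 10 mice (252 relabellings, smallest possible p 0.00794) on the mean log2 CPM over the muscles gave p = 0.611 for Pax7, 0.270 for Pax3, 0.508 for Myf5, 0.111 for Myod1, 0.794 for Myog and 0.698 for Myf6. For Pax3 that mean differed by −0.34, and by −0.58 with exact permutation p = 0.0159 once WT mouse 3817948, with its EDL library at 0 reads, was left out. This was the lowest of the 10 fits with a mouse left out, where exact permutation p ran up to 0.524. The Pax3 mean took in soleus and gastrocnemius, where Pax3 was under the filter on low counts. These Pax3 values are therefore not read as a result. The sign of Pax3 also depended on the weighting, at 0.04 in the thinned sum and −0.37 in the sum of all reads. For Myod1 the mean differed by −0.25, and leaving out KO mouse 3817943 gave −0.32 with exact permutation p = 0.0317. Here too it was the lowest of the 10, where exact permutation p ran up to 0.262.

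Whether the soleus responded to the knockout unlike the other 3 muscles was tested as an interaction over the 40 libraries. No gene of 13534 passed in edgeR (0%), 1 member (Pax3) and 16.4% of the genes reached an unadjusted p under 0.05, and DESeq2 called 348 genes but 0 members. Fitting the mouse as a block gave 591 genes and again 0 members. Pax3 entered this fit through the muscles where it is higher and had 0 to 4 reads in KO soleus, so its value is not given. The other members differed by −0.41 (Myod1) to 0.13 (Myf5), with adjusted p of 0.440 and above, and by −0.26 (Myf6) to 0.03 (Myf5) without KO mouse 3805666.

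Between muscles, Pax7, Myf5, Myod1 and Myf6 passed in at least 1 pair, where none had passed between genotypes. All 4 muscles of a mouse come from the same animal, so the fit was also made with the mouse as a block. Within WT, the members that passed were 0 of 6 for soleus against EDL (15.6% of 13172 genes passed), 1 for soleus against gastrocnemius (29.6%), 1 for soleus against tibialis (10.8%), 1 for EDL against gastrocnemius (13.2%), 1 for EDL against tibialis (13.0%) and 2 for gastrocnemius against tibialis (22.1%). At the 0 of soleus against EDL, 3 members and 28.7% of the genes reached an unadjusted p under 0.05 in edgeR. DESeq2 called 1 member there, and its share of all genes is not given. Within KO the counts were 4 for soleus against EDL (40.1% of 13149 genes passed), 3 for soleus against gastrocnemius (56.4%), 4 for soleus against tibialis (40.1%), 2 for EDL against gastrocnemius (21.2%), 0 for EDL against tibialis (13.3%) and 2 for gastrocnemius against tibialis (28.2%). Each KO count above 0 includes Pax3, which passed the filter on low counts through EDL and tibialis, and the counts without it were 3, 2, 3, 1 and 1. These shares of 6 lay near those of all genes in most pairs and say nothing of the members as a group. For EDL against tibialis in KO no member reached an unadjusted p under 0.05 in edgeR (28.2% of the genes did), and DESeq2 called 0. With the mouse as a block the WT counts rose to 2, 3 and 4 for soleus against EDL, gastrocnemius and tibialis and to 2 for EDL against gastrocnemius, and no call was lost. Of these, the count for soleus against tibialis includes Pax3, which entered the WT fit through the muscles where it is higher. The block also raised the calls over all genes for soleus against tibialis and EDL against gastrocnemius, with totals given further below. No share of all genes is given for soleus against EDL or gastrocnemius with the block. The higher counts thus say nothing of the members as a group. In KO the block changed no member's call.

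**Figure D3:**
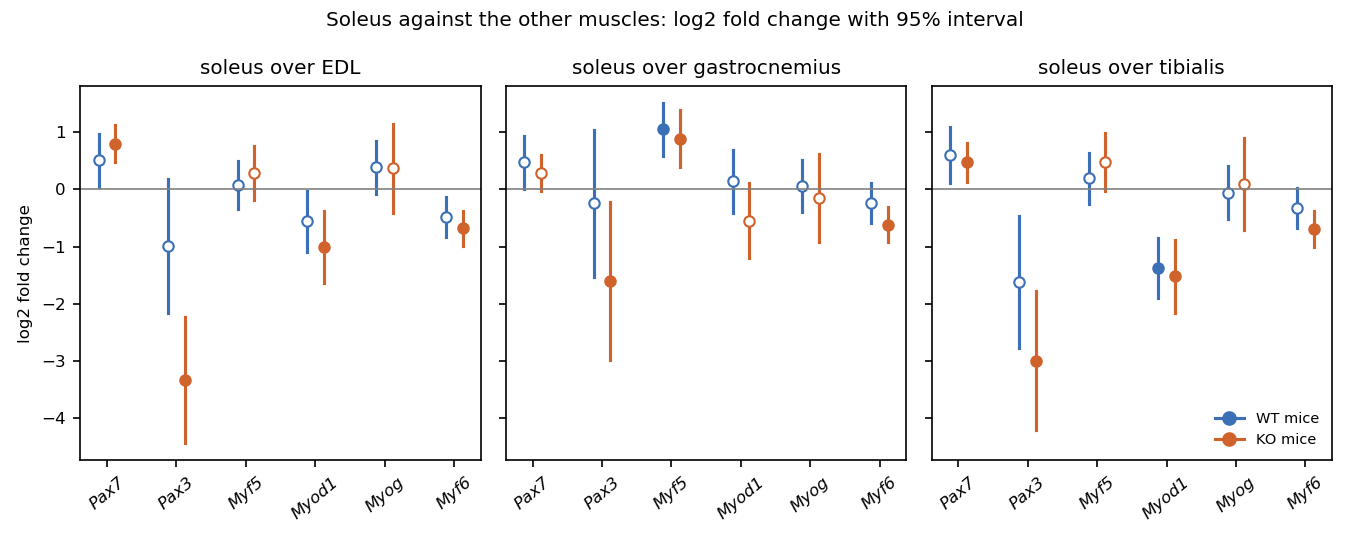
Log2 fold change of soleus over each other muscle (vertical axis) for the 6 genes, with 95% edgeR intervals, in WT (blue) and KO (orange) mice, fitted separately and without the mouse as a block. Filled points passed the adjusted threshold and open points did not. The Pax3 points rest on 0 to 4 reads per library in KO soleus and 3 to 11 in WT soleus and are no measured fold. Pax7 is above 0 and Myf6 below 0 in all 3 panels in both genotypes, and Myf5 stands above 0 chiefly against gastrocnemius.

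Pax7 was highest in soleus. Its WT means were 2.46 CPM in soleus, 1.79 in gastrocnemius, 1.71 in EDL and 1.62 in tibialis, and in KO they were 2.31, 1.86, 1.31 and 1.65. Within the same animal, soleus exceeded gastrocnemius and tibialis in 5 of 5 WT and 5 of 5 KO mice, and EDL in 4 WT and 5 KO mice. In KO the log2 fold change was 0.80 over EDL (SE 0.16, edgeR adjusted p = 0.000272, and 0.88 without mouse 3805666), 0.29 over gastrocnemius, which did not pass (adjusted p = 0.101, and 0.27 without that mouse), and 0.47 over tibialis (adjusted p = 0.0193). The tibialis call was lost with DESeq2 (adjusted p = 0.0602), without mouse 3805666 (0.43, adjusted p = 0.0855) and without mouse 3817943 (adjusted p = 0.118). In WT the corresponding values of 0.51, 0.47 and 0.61 over EDL, gastrocnemius and tibialis did not pass (adjusted p = 0.129, 0.124 and 0.103), and with the mouse as a block they did, at 0.55, 0.48 and 0.59 (adjusted p = 0.0278, 0.0356 and 0.0327). KO EDL was also below KO gastrocnemius by 0.51 (adjusted p = 0.0235), a call lost without any 1 of mice 3779417, 3793546, 3805676 and 3817943 (adjusted p up to 0.0954). The summed endothelial markers were also highest in soleus, at 277.8 ± 77.3 CPM in WT (SD, n = 5, 8 of 8 genes detected). They did not follow the Pax7 order, with 238.5 ± 54.1 in tibialis, 162.6 ± 26.2 in gastrocnemius and 142.1 ± 20.4 in EDL. The summed adipocyte markers did, at 1015 ± 222, 967 ± 76.2, 843 ± 58.9 and 813 ± 92.8 CPM in WT soleus, gastrocnemius, EDL and tibialis. So did those of smooth muscle and pericytes in WT, from 572.5 ± 26.2 in soleus to 513.2 ± 22.0 in tibialis. The part of these markers in the Pax7 difference was not tested.

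Pax3 had the opposite order to Pax7. It was highest in tibialis or EDL and lowest in soleus in both genotypes, with means of 0.893, 0.596, 0.350 and 0.316 CPM in WT tibialis, EDL, gastrocnemius and soleus. In KO, soleus had 0 to 4 reads per library (mean 0.0779 CPM) and gastrocnemius 1 to 7, where EDL had 10 to 25 and tibialis 6 to 14. Every KO soleus library lay below every KO EDL and KO tibialis library, with and without mouse 3805666, whose soleus had no Pax3 read. How many of all genes lie apart in this way was not counted. Heart, for comparison, had 17 Pax3 reads over its 10 libraries. Pax3 passed the filter on low counts through EDL and tibialis, so no fold and no test are given for these KO pairs. In WT, soleus was below tibialis in 5 of 5 mice, with 3 to 11 reads against 4 to 27. In edgeR that difference missed the threshold (adjusted p = 0.0647). Pax3 was under the filter where soleus was fitted alone, and it entered the WT fit through the muscles where it is higher. No fold is therefore given for this pair either. Its calls with the mouse as a block, with DESeq2 and without WT mouse 3817948 are not read as a result.

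Myf5 was lowest in gastrocnemius. In WT gastrocnemius it was 0.738, 0.714, 0.696, 0.864 and 0.914 CPM, below all 5 WT soleus libraries at 1.498, 2.19, 0.994, 1.63 and 1.80 CPM. The 2 groups did not overlap, but the share of all genes without overlap was not counted, so this is not a trait of Myf5. Soleus was higher than gastrocnemius by 1.05 on the log2 scale (SE 0.22, edgeR adjusted p = 0.00126). EDL was higher than gastrocnemius by 0.98 (adjusted p = 0.00616) and tibialis by 0.85 (adjusted p = 0.0125, but 0.0523 without mouse 3793543). In KO, gastrocnemius was below the other 3 muscles in 5 of 5 mice each. The KO soleus difference of 0.89 passed (edgeR adjusted p = 0.00368), as did 0.76 without mouse 3805666 (adjusted p = 0.0219). KO EDL over gastrocnemius (0.60, adjusted p = 0.0922) and KO gastrocnemius over tibialis (−0.41, adjusted p = 0.266) did not pass. No pair among soleus, EDL and tibialis passed for Myf5.

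Myod1 was highest in tibialis. In WT it averaged 9.76 CPM there, 5.59 in EDL, 3.79 in soleus and 3.45 in gastrocnemius. The lowest WT tibialis library (7.49 CPM) lay above the highest soleus (5.23) and gastrocnemius (4.57) libraries. How many of all genes lie apart in this way was not counted, so this is not a trait of Myod1. Tibialis was higher than gastrocnemius by 1.51 on the log2 scale (SE 0.26, edgeR adjusted p = 0.000538) and than soleus by 1.37 (adjusted p = 0.00115). Its lead of 0.81 over EDL (adjusted p = 0.0334) was lost without any 1 of mice 3793543, 3793553, 3805657 and 3805673 (adjusted p = 0.0866 to 0.213). In KO, soleus was below tibialis by 1.52 (adjusted p = 0.000672, and a log2 fold change of −1.39 without mouse 3805666) and below EDL by 1.01 (adjusted p = 0.0126, with 0.0486 without mouse 3805666, 0.0800 without 3805676 and 0.0922 without 3817943). KO gastrocnemius was below tibialis by 0.97 (adjusted p = 0.0212), lost without mouse 3793546, 3805676 or 3817943 (adjusted p = 0.0878, 0.120 and 0.105).

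Myf6 was lowest in soleus, and Myog passed in no pair of muscles. In KO, Myf6 in soleus was below EDL by 0.68 on the log2 scale (SE 0.15, edgeR adjusted p = 0.00125), below gastrocnemius by 0.62 (adjusted p = 0.00164) and below tibialis by 0.69 (adjusted p = 0.00121), and soleus was the lowest muscle in 5 of 5 mice in each of these pairs. Without mouse 3805666 the values were −0.59, −0.61 and −0.65 and all still passed. In WT the same differences were −0.49, −0.23 and −0.33 and did not pass (adjusted p = 0.0545, 0.320 and 0.228). With the mouse as a block they passed at −0.48, −0.24 and −0.33 (adjusted p = 0.000174, 0.0189 and 0.00686), and EDL then also exceeded gastrocnemius by 0.24 (adjusted p = 0.0319). The summed fibre markers Acta1, Ckm, Mylpf and Tnnt3 were lowest in soleus too, at 43890 ± 4762 CPM in WT. They stood at 46410 ± 1677 in tibialis, 50950 ± 4928 in EDL and 61260 ± 3617 in gastrocnemius, which is not the order of Myf6. Mylpf and Tnnt3 are also genes of fast fibres. The part of these markers in the Myf6 difference was not tested. Myog was higher in soleus than in EDL in 5 of 5 WT and 5 of 5 KO mice, with log2 fold changes of 0.39 and 0.37 that missed the threshold (adjusted p = 0.256 and 0.456), and 0.34 in KO without mouse 3805666. Without KO mouse 3805676 the KO comparison passed at an adjusted p of 0.0407. Whether the muscle differences of the 6 genes themselves differ between WT and KO was tested only for soleus against the mean of the other muscles, as above.

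Myog, the differentiation factor, was also set against Myod1, the lineage factor, as the ratio of their reads in each library (0.5 added to each). In tibialis the ratio was 0.176, 0.434, 0.214, 0.282 and 0.319 in WT and 0.355, 0.349, 0.439, 0.441 and 0.329 in KO. All 5 KO libraries lay above the WT median and 2 above every WT library, and the difference of 0.49 on the log2 scale had an exact permutation p of 0.0714. Without WT mouse 3793553, whose ratio was 0.434, it was 0.66 with exact permutation p = 0.00794. That mouse was the only WT library inside the KO range, so leaving it out fixed p at the smallest value possible. Over the 10 mice left out in turn, exact permutation p ran from 0.00794 to 0.167. In soleus the ratio ran from 0.425 to 1.08 in WT and from 0.649 to 2.31 in KO, a difference of 0.79 (exact permutation p = 0.127), or 0.56 without KO mouse 3805666 (exact permutation p = 0.238) and 1.02 without KO mouse 3779417 (exact permutation p = 0.0476). That last value was the lowest of the 10 soleus fits with a mouse left out, where exact permutation p ran up to 0.270. The highest soleus ratios, 2.31 and 2.13, were those of KO mice 3805666 and 3805676. In EDL and gastrocnemius the differences were 0.23 and 0.06 (exact permutation p = 0.635 and 0.929), and their sign changed when single mice were left out. No value passed a threshold of 0.05 with all mice.

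**Figure D4:**
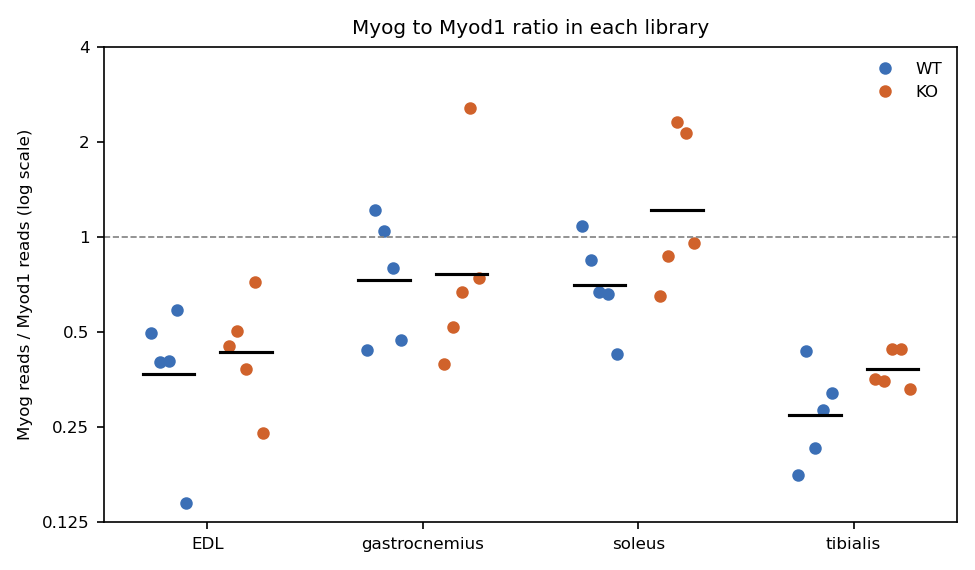
Ratio of Myog to Myod1 reads (vertical axis, log scale) in each muscle library, WT in blue and KO in orange, with the geometric mean of 5 mice as a black line and a dashed line at 1. In tibialis the KO ratios of 0.329 to 0.441 all lie above the WT median, and 2 lie above the WT range of 0.176 to 0.434, and the soleus ratios of both genotypes lie above those of tibialis, with 1 WT exception.

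Genes around the 6 factors were counted in lists. In KO against WT no gene of the satellite cell list (20 genes), the Notch pathway list (14), the partners and antagonists of the helix-loop-helix factors (16), the upstream factors (12), the early differentiation and fusion genes (15), the activity-dependent genes (15) or the growth signals (13) passed in any muscle or in the summed muscles. The median log2 fold change of the satellite cell list was 0.01 in soleus (−0.0035 without mouse 3805666), 0.0051 in EDL, 0.0036 in gastrocnemius and −0.07 in tibialis, where all tested genes gave 0.02, −0.0026, −0.0068 and −0.0016. Among the upstream factors in soleus, Lbx1, a homeobox gene of migrating muscle precursors, averaged 6.62 ± 1.71 CPM in WT and 4.09 ± 0.756 in KO (log2 fold change −0.71, edgeR adjusted p = 0.238, or −0.65 without mouse 3805666), while it stood at 0.34 in EDL and 0.33 in tibialis. Barx2 of the same list stood at 0.68 in soleus (adjusted p = 0.238, or 0.51 without that mouse). Ncam1, a surface protein of satellite cells and of denervated fibres, stood at 0.53 (adjusted p = 0.238, or 0.49 without that mouse) in the same comparison. None of the 10 slow fibre genes passed in any muscle. Their median log2 fold change of KO over WT was 0.95 in soleus (0.66 without mouse 3805666), 0.36 in gastrocnemius, −0.74 in EDL and −0.21 in tibialis. In KO soleus 10 of 10 were positive, beside 6929 of 12965 genes. The same held in gastrocnemius, with 10 of 10 beside 5896 of 12624 genes, and in EDL and in tibialis 1 of 10 was.

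Between WT soleus and EDL, 3 of the 20 satellite cell genes were higher and 1 lower, beside 9.79% and 5.79% of all genes tested. Notch3 and Heyl, a receptor and a target of the Notch pathway that keeps satellite cells quiescent, were higher by 1.12 and 0.74 on the log2 scale (edgeR adjusted p = 0.000271 and 0.00237), and the imprinted gene Peg3 was lower by 1.55 (adjusted p = 0.00132). Of the 14 Notch genes 6 were higher and 0 lower, with a median of 0.45, and they included the ligand Dll4 (1.11) and the target Hey1 (0.94), genes that endothelial cells also express. The endothelial marker sums given with Pax7 were higher in soleus as well, and their part in these calls was not tested. Of the 15 tested partners and antagonists of the helix-loop-helix factors 3 were higher and 0 lower, with 7 positive and a median of −0.06. The 3 were the inhibitors Id1 (1.09) and Id3 (0.48) and the Hes family member Hes6 (0.88). Of the upstream factors Barx2 was higher by 1.91 and Tbx15, a factor of fast fibres, lower by 0.78 (adjusted p = 3.69e-06). Against gastrocnemius 10 of the 20 satellite cell genes were higher in WT soleus and 0 lower, beside 16.0% and 13.6% of all genes, and against tibialis 4 were higher and 1 lower, beside 6.39% and 4.39%.

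The genes whose level most resembled each member over the 40 muscle libraries were found among 11884 genes with a mean of at least 1 CPM. For Pax7 they were Apold1 (Pearson r of log2 CPM 0.69), Arap2 (0.67) and the slow myosin Myh7 (0.67). For Myod1 they were Fhod3 (0.86), Nos1 (0.81), the neuronal-type nitric oxide synthase of the fibre membrane, and Nudt18 (0.81). Myf5 was closest to Mtx3 (0.82), Aida (0.77) and Laptm4a (0.76), and Myf6 to Adpgk (0.87), Pde4d (0.84) and Pdlim3 (0.84). For Myog the values were lower, with Klf6 at 0.67, Fpgs at 0.59 and Atp6v1b2 at 0.57, and Klf6 fell to 0.34 without mouse 3805676. Pax3, with a mean of 8.9 reads, was too low to be compared. These r values describe libraries that share muscles and animals: after group means were removed, r of Pax7 with Myh7 was 0.11, with Apold1 0.54, and of Myod1 with Fhod3 0.67. Among the members, Pax7 and Myf6 had the most negative r, −0.59 over the 40 libraries and −0.37 after group means were removed, and the neighbours Myf5 and Myf6 had −0.21 and −0.07.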

How the data were processed

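The values tested were expected counts per gene, from a table the authors deposited (85.72% of the values whole, within 1e-09), and levels between genes were read from a deposited table of RPKM, reads per kilobase of exon and M reads. The build is mm10 per the submitters' processing notes. Per the labels, polyadenylated RNA was extracted with MagMax and made into libraries with the KAPA stranded kit; the aligner, the counting tool and the use of strand are not given in the sources used here. Expected counts were rounded, and 22 marker sequences (at most 0.0323% of a library) were left out. Only Pax3 had fractions of a read, in 10 libraries, so some of its reads may be shared. Genotypes were compared within each muscle, in counts summed per mouse after thinning each library to 8.99 M, and as an interaction over 40 libraries, and muscles were compared within genotypes. R 4.3.3 with edgeR 4.0.16 was used for the fits, with TMM factors, the quasi-likelihood test and filterByExpr (smallest count 10, smallest total 15), with Benjamini-Hochberg adjustment over all tested genes at 0.05. Standard errors came from the F statistic and were widened to the counting error where the fitted variance was below it. The fits were tested on simulated data. Single values were compared by exact permutation of mice in Python 3.11.15 with scipy 1.17.1. Over 60 pairs of muscle libraries of the same mouse the mean correlation of deviations from group means was 0.159 (44 above 0.1). As a muscle pair shares its animal, the mouse was tried as a block. Other alternatives were DESeq2 1.42.0 (its Wald test, or its size factors in edgeR), a filter at 1 read only, age as covariate or in matched sets, other pseudocounts, and each mouse left out. Over 172 pairs of replicates no library was a copy of another (chi-square per gene at least 4.779). The limit of 3 reads for a count of 0 covers counting error only. Named genes are the 6 members, Cdh15, the fibre myosins, up to 3 most correlated genes per member (at a mean of at least 10 reads) and, from each list, up to 3 called in WT soleus over EDL and up to 2 of smallest p between genotypes, of which a selection is printed. A list of co-regulators is not reported here. The members and lists were chosen with earlier results of these data known.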

Additional observations from a re-analysis of the deposited data

Results flagged for a closer look

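In 56 sets of 5 mice (6 genes and the Myog to Myod1 ratio, in 8 groups), the highest or lowest mouse was compared with its nearest neighbour relative to the range, and 6 sets held a mouse that stood far off. A rate of about 1 in 20 by chance would hold for independent sets of normally distributed values. These sets shared mice and genes, and some rest on few reads, so the count of 6 was not tested against chance. Myog was far above the other mice in KO mouse 3805676, in EDL (4.337 CPM, where the other 4 KO mice held 1.64 to 1.92) and in gastrocnemius (7.501 CPM against 1.72 to 2.63). Myog also stood off in WT tibialis, in mouse 3793553 (4.458 CPM from 84 reads). Pax3 stood off in KO tibialis in mouse 3817943 (0.9994 CPM from 14 reads) and in WT gastrocnemius in mouse 3793553 (0.6188 CPM from 13 reads). The log2 ratio of Myog to Myod1 was lowest in WT EDL in mouse 3817948, at −2.8008, the same library that had no Pax3 read.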

How the results depend on the processing

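Of 496 recomputed edgeR and DESeq2 fold changes of the members in KO over WT, 446 kept their sign and 50 reversed, and none passed the adjusted threshold. With a mouse left out at a time, log2 fold changes of KO over WT ran, in EDL, from −0.16 to 0.14 (Myf5), −0.31 to 0.17 (Myod1), −0.16 to 0.31 (Myog) and −0.18 to 0.034 (Myf6). In gastrocnemius they ran from −0.069 to 0.17 (Pax7), −0.0305 to 0.24 (Myod1), −0.17 to 0.58 (Myog) and −0.0095 to 0.14 (Myf6), in soleus from −0.23 to 0.0015 (Pax7) and −0.029 to 0.27 (Myog), and in tibialis from −0.026 to 0.073 (Pax7), −0.18 to 0.0092 (Myf5), −0.081 to 0.31 (Myog) and −0.04 to 0.15 (Myf6). In the summed muscles they ran from −0.11 to 0.053 (Pax7), −0.21 to 0.23 (Pax3), −0.0072 to 0.18 (Myf5), −0.048 to 0.31 (Myog) and −0.16 to 0.018 (Myf6), and mean log2 CPM differences from −0.14 to 0.023 (Pax7), −0.084 to 0.23 (Myog) and −0.15 to 0.033 (Myf6). Without KO mouse 3805666, chosen after seeing the data, the median of the satellite cell list in soleus turned to −0.0035. Summing without thinning turned Pax3 to −0.37. The interaction ran from −0.12 to 0.11 (Pax7), −0.014 to 0.31 (Myf5) and −0.14 to 0.13 (Myog). It was −0.0091 for Pax7 with DESeq2 size factors, −0.0018 without the filter and, with the mouse as a replicate block, −0.0028 for Pax7 and 0.0251 for Myog. Ratio differences of Myog to Myod1 ran from −0.11 to 0.44 in EDL, −0.37 to 0.30 in gastrocnemius, 0.56 to 1.02 in soleus and 0.33 to 0.66 in tibialis. DESeq2 called 3 genes in EDL, 2 in gastrocnemius, 149 in soleus, 31 in the sums and 348 in the interaction, where edgeR called 1, 1, 1, 1 and 0. Leaving out mice gave 1 to 2 genes in EDL, gastrocnemius and soleus and 0 to 384 in the interaction, with 384 without WT mouse 3793543 and 337 without KO mouse 3793546. With the replicate block the interaction gave 591.

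Between WT muscles, leaving out a mouse gave 1164 to 1944 genes for soleus over EDL (2053 with all mice), 2326 to 3563 for soleus over gastrocnemius (3900), 774 to 1281 for soleus over tibialis (1420), 924 to 1391 for EDL over gastrocnemius (1740), 797 to 1500 for EDL over tibialis (1714) and 1773 to 2345 for gastrocnemius over tibialis (2910). In KO it gave 1612 to 2693 for EDL over gastrocnemius (2792), 863 to 1586 for EDL over tibialis (1748) and 2097 to 3278 for gastrocnemius over tibialis (3703). Members called ran from 0 to 1 (soleus over EDL), 1 to 2 (soleus over tibialis), 0 to 1 (EDL over tibialis) and 1 to 3 (gastrocnemius over tibialis) in WT, and 0 to 2 for EDL and for gastrocnemius in KO over their partners gastrocnemius and tibialis. The replicate block gave 2816 genes for EDL over gastrocnemius, 2836 for EDL over tibialis and 2232 for soleus over tibialis in WT, with 2, 3, 4 and 2 members for soleus over EDL, gastrocnemius and tibialis and for EDL over gastrocnemius, and it ended no member's call. DESeq2 called 1 member in WT soleus over EDL and 2 in soleus over tibialis, and no filter left 1 member for KO gastrocnemius over tibialis. These counts by DESeq2 and without the filter have no share of all genes beside them and say nothing of the members as a group. Leaving out a mouse turned Pax7 in WT EDL over gastrocnemius (−0.14 to 0.047) and Myf6 in KO EDL over gastrocnemius (−0.024 to 0.13). The fitted Pax3 value in WT soleus over gastrocnemius turned as well (−0.74 to 0.17). Pax3 was under the filter on low counts where each of these muscles was fitted alone. It had 3 to 11 reads in WT soleus and 5 to 13 in WT gastrocnemius. This Pax3 range is therefore no measured fold and is not read as a result. A limit of 10 reads left 0 libraries of other tissues above it for Pax7 and 0 for Pax3. Depth limits Pax3 most, with 0 to 4 reads in KO soleus libraries, and the causes of these shifts were not tested.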

Other observations

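KO mouse 3805676 was chosen after its Myog values had been seen, and its other activity-dependent genes were listed beside them. Myog was highest of the 10 mice in 3 of its 4 muscles. Of 15 genes of the nerve contact and of denervation, Chrna1 (gastrocnemius), Ncam1 (soleus) and Dach2 (gastrocnemius) were highest of the 10 mice in 1 muscle each and the other 12 in none. In its gastrocnemius, where Myog was 7.501 CPM, the acetylcholine receptor gene Chrna1 was 11.8 CPM (8.82 to 11.2 in the other KO mice and 8.68 to 11.8 in WT), Ncam1 7.83 CPM (9.03 to 10.2 and 8.63 to 10.8), Runx1 4.49 CPM (5.28 to 6.91 and 3.76 to 9.09) and the embryonic receptor subunit Chrng 2 reads. The correlation of Myog over the libraries of the other mice was 0.34 with Klf6, 0.47 with Fpgs and 0.42 with Atp6v1b2, an alternative chosen after seeing the data.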
